A study of Mus musculus with 2 samples.

Results

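The clustered protocadherin genes of the mouse were examined in genome-wide maps of histone H3 lysine 4 trimethylation (H3K4me3), a chromatin mark found at the starts of active and poised genes. The genes were the protein-coding genes of chromosome 18 that GENCODE release M21 names Pcdha, Pcdhb, Pcdhga, Pcdhgb or Pcdhgc. This rule gave 57 of 22028 protein-coding genes, with 14 in the alpha cluster, 22 in the beta cluster and 21 in the gamma cluster. The maps were made from group 2 innate lymphoid cells (ILC2s), tissue-resident lymphocytes that release type 2 cytokines, sorted as CD45+, Lin-, ST2+ from the lungs of 8-week-old C57BL/6J mice. The study's reporting summary adds CD90.2+ to the gate for adult lungs. A first library came from offspring of control mothers, which received PBS with alum on days -21 and -7 before mating and intranasal PBS between gestation days 4 and 17. The other library came from offspring of asthmatic mothers, which received 100 µg of ovalbumin (OVA) with alum on the same days and repeated intranasal doses of 500 µg of OVA over the same part of gestation. Fathers were untreated, and no treatment of the offspring themselves is stated for these samples. About 3000 cells entered each library. The study used mice of both sexes, but the sex and number of offspring behind a library were not given in the sources used here. Each group traced to 1 pregnant dam, so that "mothers" here names a treatment and not several animals. There was 1 library per group, so a difference between the lists has no replicate error and no test, and maternal treatment, dam, litter, cell yield and library quality cannot be told apart.

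Clustered protocadherins are cadherin-like adhesion proteins that neurons use to tell their own branches from those of other cells. Each alpha and gamma gene has its own promoter in front of a large variable exon, which is spliced to constant exons at the end of its cluster that encode a shared intracellular end. Beta genes lack constant exons. Single neurons switch on a few alternative genes by promoter choice, in which CTCF and cohesin join a promoter to distant enhancers, while DNA methylation keeps unchosen promoters silent. The C-type genes at the ends of the alpha and gamma clusters do not follow this random choice. Promoters of chosen genes carry H3K4me3, so a peak of the mark at a member's start is a reading of the promoter's state and not of RNA.

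On GRCm38 the alpha cluster lay on chromosome 18 from 36930184 to 37187661 (257 kb), the beta cluster from 37264938 to 37524479 (260 kb) and the gamma cluster from 37661793 to 37841873 (180 kb). All members were on the plus strand. All 14 alpha members used exons at 37156155-37156213, 37159265-37159353 and 37184946-37187657, and all 21 gamma members used exons at 37825021-37825079 and 37833265-37833353. Of the 22 beta members, 18 had a single exon and 4 had up to 2. Because alpha and gamma variants share the constant exons of their cluster, members of these clusters are not independent genes. The symbol Pcdha11 stood for 2 genes in this annotation, and the one that starts at 37005203 lies at the start of Pcdha10 in RefSeq. Pcdhgb8 was annotated as a polymorphic pseudogene and was therefore no member.

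The peak list of offspring of control mothers (the control list) held 42126 peaks, and that of offspring of asthmatic mothers (the asthmatic list) held 51610. Each peak has a fold, read here as the ratio of signal at its summit to the local background after 1 is added to each. It also has a −log10 q, for which larger values mean a smaller q-value. Neither was scaled between the libraries, so each value is read within its own list. Peaks at coding starts had a median width of 472 bp and a median −log10 q of 12 in the control list, and 320 bp and 7.52 in the asthmatic list, as the scale for the members' peaks within each list. The sorted cells were checked against marker genes, where 11 of 14 ILC2 markers had a start peak, that is a peak within 1000 bp of any annotated transcript start, in the control list (78.6%, 95% interval 49.2 to 95.3) and 8 of 14 in the asthmatic list (57.1%, 28.9 to 82.3). Both intervals hold the share of all protein-coding genes, 50.9% and 41.9%, so these counts do not set the ILC2 markers apart from other genes. Gata3, which encodes the defining transcription factor of ILC2s, had a start peak in the control list alone, and so did Il7r and Il5, while Icos, Klrg1 and Il13 had none in either list. None of 8 neuronal, 5 B cell, 5 macrophage or 5 fibroblast markers had a start peak in either list. In the control list alone, 2 of 5 epithelial markers (Epcam with a fold of 8.24 and Cdh1 with 6.23), 1 of 5 T cell markers (Lck) and 1 of 4 endothelial markers (Kdr) had one, and the part of other cells in the results was not tested.

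The clustered protocadherin promoters were almost free of H3K4me3 peaks in ILC2s of both groups of offspring. A start peak was found at 2 of 57 members in the control list (3.51%, 95% interval 0.428 to 12.1) and at 1 of 57 in the asthmatic list (1.75%, 0.0444 to 9.39). Of all protein-coding genes, 50.9% had one in the first list and 41.9% in the second. Intervals are exact Clopper-Pearson intervals and cover counting error alone. The members with a peak were Pcdhgb6 and Pcdhgc3 in the control list and Pcdhgc3 in the asthmatic list. None of the 14 alpha members (interval up to 23.2%) and none of the 22 beta members (up to 15.4%) had a start peak in either list. In the gamma cluster the share was 9.52% (1.17 to 30.4) and 4.76% (0.12 to 23.8). The share of members with a peak in both lists was 1 of 57, against 41.2% of all protein-coding genes. A peak in the control list alone was likewise found at 1 of 57 members, against 9.71% of all protein-coding genes.

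**Figure D1:**
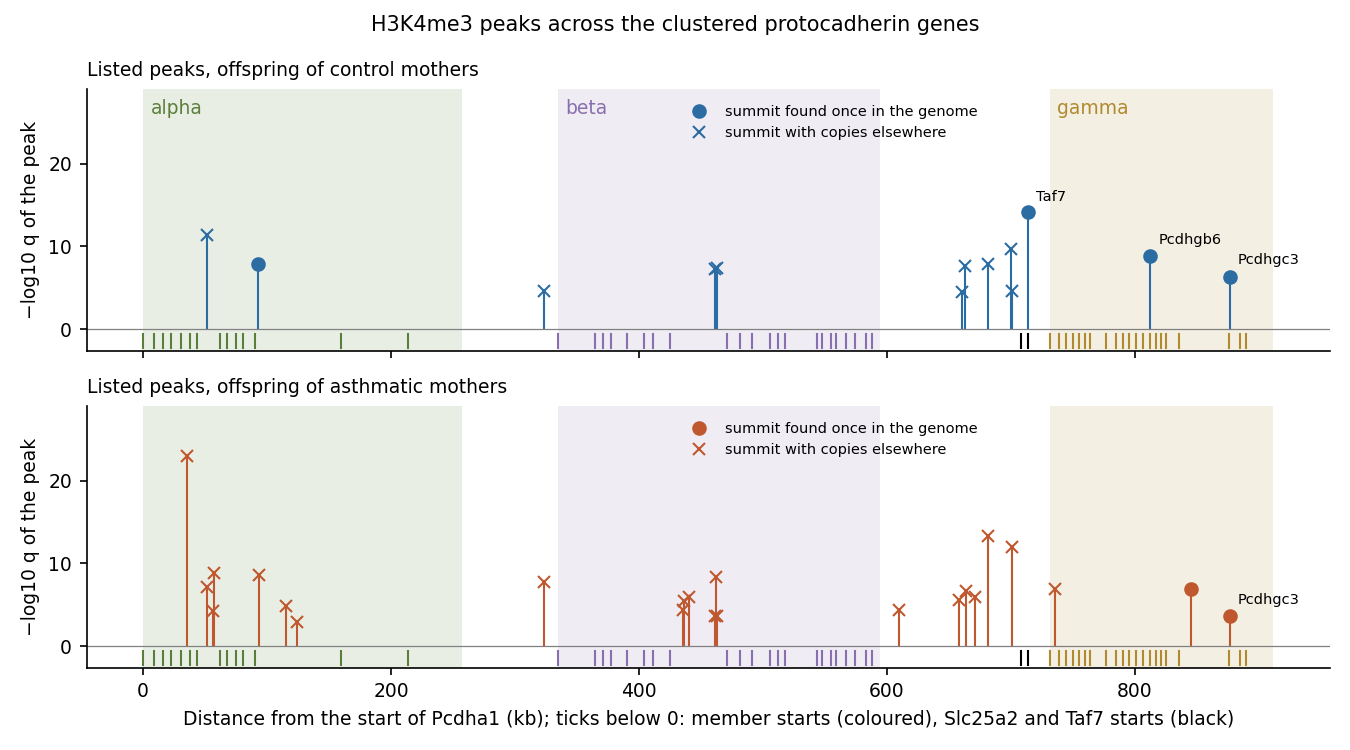
Listed H3K4me3 peaks of each library (stems, height −log10 q) across the clusters, plotted against distance in kb from the start of Pcdha1, with a filled circle where the summit occurs once in the genome, a cross where it has copies, and ticks for gene starts. Peaks at member starts are those of Pcdhgb6 and Pcdhgc3 in the control list and of Pcdhgc3 in the asthmatic list, and most other peaks in the clusters have copied summits.

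The absence of peaks was not shared by the chromosome around the clusters. Of the other 456 protein-coding genes of chromosome 18, 60.1% (55.4 to 64.6) and 51.1% (46.4 to 55.8) had a start peak. Among the 5 nearest coding genes before the alpha cluster, 4 had a start peak in each list, and among the 5 nearest after the gamma cluster 4 and 3 had one. Hars and Hars2 before alpha shared the same peak in each list, and so did Hdac3 and Rell2 after gamma. The marked genes nearest to the clusters on these sides began at 36793876 (Zmat2) and 37935476 (Diaph1). Diaph1, which encodes a formin that builds actin filaments and lies next to the gamma cluster, had a peak in each list, whose −log10 q was 24.2 and 10.1. Both other coding genes between the beta and gamma clusters were read as well. Taf7, which encodes a subunit of the general transcription factor TFIID, had a start peak at 37643857-37644148 in the control list (fold 8.17, −log10 q 14.2) and none in the asthmatic list, where the nearest peak was 13151 bp away. Slc25a2, a mitochondrial carrier gene, had none in either list. The read-through coding records Gm42416, Gm37013 and Gm37388, which span the clusters, had no start peak either.

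Most members lay far from any peak. The median distance from a member's starts to the nearest peak was 30159 bp in the control list and 26265 bp in the asthmatic list, compared with 518 bp and 5586 bp for all protein-coding genes. Beta members were the most distant, with medians of 54309.5 bp and 42012 bp, followed in the control list by alpha members at 19636 bp and gamma members at 17645 bp. In offspring of asthmatic mothers the medians of these 2 clusters were in the opposite order, at 11858 bp for alpha and 24204 bp for gamma. In that list 7 of 7 peaks inside alpha and 1 of 3 inside gamma had a summit with copies elsewhere in the genome. In the control list these counts were 1 of 2 and 0 of 2. The changed order is therefore not read as a difference between the groups. No peak lay within 10 kb of 48 of 57 members in the control list and 45 of 57 in the other. Among members without a start peak, the nearest peaks were those of Pcdha6, 1897 bp away in offspring of asthmatic mothers and 14150 bp away in offspring of control mothers, of Pcdha12, at 3005 bp and 2966 bp, and of Pcdhga2, at 3329 bp and 24805 bp.

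**Figure D2:**
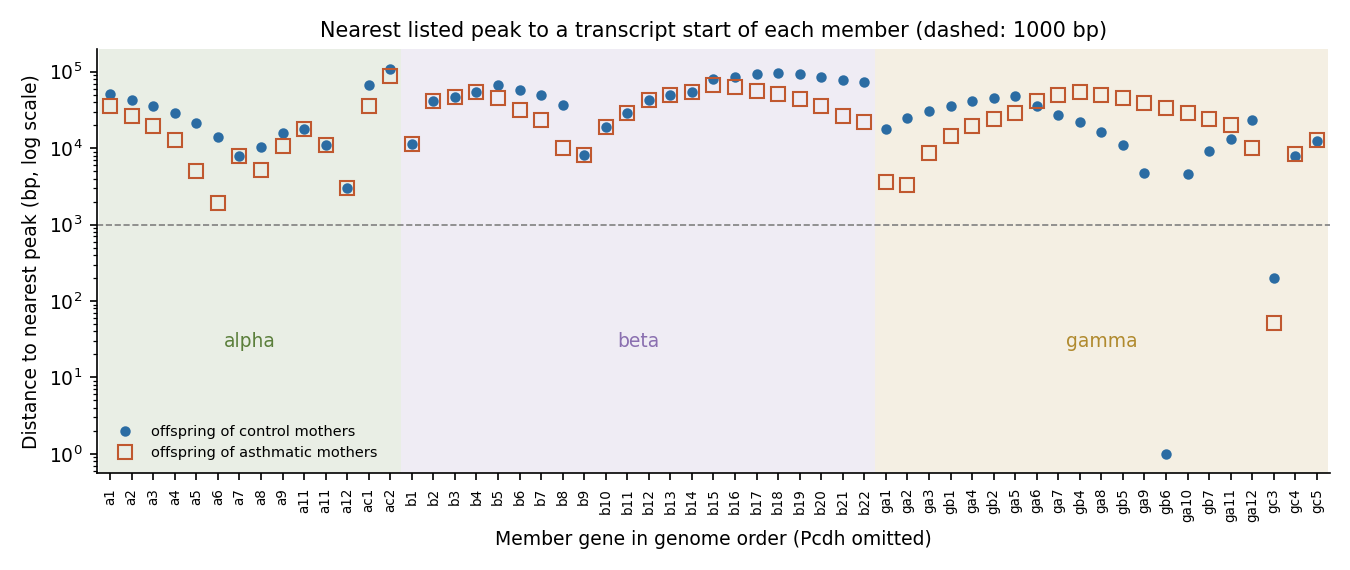
Distance in bp on a log axis from each member's transcript starts to the nearest listed peak, in genome order, for each library. Pcdhgc3 is close to a peak in both lists and Pcdhgb6 in the control list, while the starts of most other members lie more than 10 kb from any peak.

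The first and last genes of each cluster, which have no start peak, were also read. Pcdha1 was 51515 bp from a peak in the control list and 35204 bp in the asthmatic list, and Pcdhb1 was 11272 bp and 11330 bp away. Pcdhb22, the last beta gene, was 72228 bp and 21949 bp from a peak, and Pcdhga1, the first gamma gene, was 17645 bp and 3559 bp away.

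The 5 C-type members were described singly because they are regulated apart from the alternative genes. Pcdhgc3, whose product is known to promote dendrite branching, was the sole C-type member with a start peak, and had one in both lists. Pcdhac1 lay 66611 bp from the nearest peak in the control list and 35329 bp in the asthmatic list. Pcdhac2, which serotonergic neurons need to spread their axons, was the member farthest from a peak in both lists, at 109952 bp and 88819 bp. Pcdhgc4, known for the survival of interneurons, was 7819 bp and 8302 bp from a peak, and Pcdhgc5 12253 bp and 12736 bp. In each case the nearest peak to Pcdhgc4 and Pcdhgc5 was the one at Pcdhgc3.

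At Pcdhgc3, which starts at 37806364, the peak of offspring of control mothers spanned 37806618-37807260 (643 bp). It had a fold of 5.21, a −log10 p of 9.11 and a −log10 q of 6.37, at the 14.9th percentile of −log10 q among start peaks of its list. Solving fold and p under a Poisson model gave 15 fragments at the summit against a background of 2.07. In offspring of asthmatic mothers the peak spanned 37806468-37806777 (310 bp), with a fold of 4.29, a −log10 p of 6.08, a −log10 q of 3.62 and 10 fragments against 1.57. It ranked at the 5.11th percentile among start peaks. Both were weak peaks of their lists, they overlapped, and their summits lay 334 bp and 322 bp past the nearest annotated start. Both lay in the longest annotated first exon of Pcdhgc3, and both also lay inside the antisense gene BC037039 (37805718-37807922, minus strand), whose own start was 662 bp and 1145 bp from them. Pcdhgc3 and BC037039 cannot be told apart as the gene to which the control peak belongs, since it lay within 1000 bp of a start of each.

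At Pcdhgb6, which starts at 37742094, the peak of offspring of control mothers spanned 37742095-37742461 (367 bp), within the first exon at 37742094-37744658. It had a fold of 6.37, a −log10 p of 11.8, a −log10 q of 8.84 and 17 solved fragments against a background of 1.83, and ranked at the 30.5th percentile among start peaks. No base of it was repeat-masked. In offspring of asthmatic mothers the nearest peak to it was 33352 bp away. Absence of a peak of this kind from the second list was frequent across the genome. Of the 813 control start peaks with a −log10 q within 0.5 of it, 43.5% (40.1 to 47) overlapped no peak of the other list. Around the control peak at Pcdhgc3, 65.8% of 789 start peaks of like −log10 q had no overlap (62.4 to 69.1), whereas the Pcdhgc3 peak did. In the opposite direction, 11.4% of 551 start peaks of the asthmatic list like the one at Pcdhgc3 overlapped no control peak (8.9 to 14.4).

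**Figure D3:**
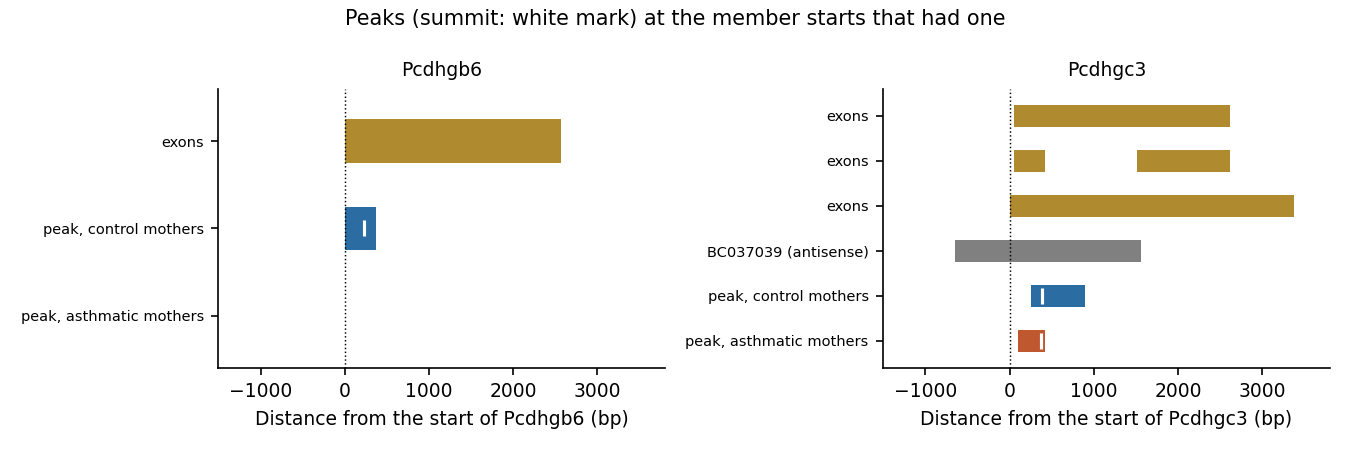
Listed peaks (white mark, summit) around the starts of Pcdhgb6 and Pcdhgc3 in each library, with annotated exons, 1 row per transcript, and the antisense gene BC037039, plotted against distance in bp from the gene's start. The Pcdhgb6 peak is in the control list alone, and the Pcdhgc3 peaks overlap each other and BC037039.

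Peaks inside the clusters were counted next. There were 6 peaks inside the clusters in the control list, 2 of them at member starts, and 16 in the other list, 1 of them at a member start. Among peaks whose −log10 q reached 5 the counts were 6 and 9, and among the 10000 peaks of highest −log10 p in each list they were 0 and 1. Over all listed peaks this was 8.61 and 23 peaks per Mb, next to 14.1 and 17.3 for chromosome 18 and 15.4 and 18.9 for the genome. By cluster there were 2 and 7 peaks in alpha, 2 and 6 in beta, and 2 and 3 in gamma. In each list, 5 of these peaks overlapped a peak of the other list, while 71.8% of all control peaks and 60.9% of all peaks of the asthmatic list did. Nearly all peaks away from member starts lay in repeated sequence, as did many peaks of the genome, where the median peak of either list was 100% repeat-masked and 27458 of 41990 control peaks and 39687 of 51423 peaks of the asthmatic list had a copied summit. Of the 4 control peaks that were at no member start, all 4 were fully repeat-masked and 3 had a summit whose central 75 bases occur elsewhere in the genome. Of the 15 such peaks in offspring of asthmatic mothers, 13 were fully masked, all 15 were at least 80% masked, and 14 had a copied summit, with 5 to 16153 further copies. With single-copy summits alone the clusters held 3 and 2 peaks (4.3 and 2.87 per Mb), next to 5.33 and 4.31 per Mb in the genome. A read that lies within a copied stretch matches several places, although its mate may not, and the part of this in the number of peaks was not tested. None of the peaks away from member starts overlapped an annotated exon.

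In the alpha cluster, both control peaks away from starts overlapped a peak of the other list. One at 36981800-36982109, within the pseudogene Gm36858, had a −log10 q of 11.4 and 919 copies of its summit, and its counterpart at 36981721-36982113 had 7.11 and 574. The other at 37023115-37023402 began 2966 bp past the start of Pcdha12, with a −log10 q of 7.94 and a single-copy summit, and its counterpart at 37023154-37023474 had 8.65 and 2727 copies. A peak at 36965489-36965734, 1897 bp before Pcdha6, was listed in offspring of asthmatic mothers alone and had the highest −log10 q of the peaks inside the clusters in that list. It reached a fold of 11.7 with a −log10 q of 22.9, at the 98.2nd percentile of its list, and its summit had 16153 copies. The other alpha peaks of this list, at 36986199-36986354, 36987031-36987194, 37045089-37045253 and 37054529-37054684, had −log10 q of 4.26, 8.87, 4.88 and 2.89 and from 562 to 3262 copies.

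In the beta cluster, the peaks of both lists gathered in the stretch between Pcdhb8 and Pcdhb9. The control peaks at 37391427-37391777 (−log10 q of 7.28) and 37392630-37392826 (7.46) each overlapped a peak of the other list, at 37391597-37391765 (3.62) and 37392646-37392801 (3.69). Offspring of asthmatic mothers also had peaks at 37365176-37365421, 37366068-37366264, 37370565-37370897 and 37392115-37392335, with −log10 q of 4.37, 5.46, 6 and 8.35. All of these were fully masked with copied summits. In the gamma cluster, the peaks away from starts were those of offspring of asthmatic mothers at 37665352-37665624, 3329 bp before Pcdhga2, and 37775813-37775985, 10040 bp past Pcdhga12. Each had a −log10 q of 6.86. The first was fully masked with 95 copies, and the second was 86.1% masked with a single-copy summit.

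Long stretches without any peak covered most of the alpha and beta clusters, and were picked out after the peaks had been mapped. In offspring of control mothers no peak was listed over 230 kb from 37023403 to 37253454, which held Pcdhac1, Pcdhac2 and the alpha constant exons, nor over 198 kb from 37392827 to 37590586, which held the 14 starts from Pcdhb9 to Pcdhb22. In offspring of asthmatic mothers the matching stretches were 199 kb and 148 kb. Gaps at least as long made up 5% and 6.94% of all gaps between neighbouring peaks in the control list and 4.41% and 8.5% in the other.

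Base composition of the starts was set beside the peaks, because H3K4me3 is commonest at starts rich in CpG. Over 500 bp on each side of the start, the ratio of observed to expected CpG had a median of 0.564 in members and 0.552 in all coding genes with a value. GC content was lower in members, with a median of 44.9% against 54.7%. Clusters differed, with median CpG ratios of 0.682 in alpha, 0.378 in beta and 0.594 in gamma. Pcdhgc3 had the highest GC content of all members, 58%, and a CpG ratio of 0.797. Pcdhgb6 had 49.4% and 0.658. Pcdhga11 had the highest CpG ratio of all members, 0.864, and no start peak in either list, and Pcdhac2 had 57.7% GC, a CpG ratio of 0.681 and no start peak either.

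The members were then set beside other coding genes of like CpG ratio. Of the 21 members with a ratio from 0.6 to 0.8, 2 and 1 had a start peak, while 79% (77.9 to 80.1) and 63.7% (62.4 to 64.9) of 5588 other coding genes did. Of the 21 members from 0.4 to 0.6, none had one, while 49.5% (47.8 to 51.3) and 34.8% (33.1 to 36.5) of 3054 others did. Of the 13 members from 0.2 to 0.4, none had one, next to 21.4% and 16.3% of 3780 others. Members within these bins had lower GC content than the others, with medians of 46.2% and 59.1% from 0.6 to 0.8, so GC content was added as a second axis after these values had been seen. Among 7952 other genes weighted to the members' mix of CpG ratio and GC content, 42.8% and 30.1% had a start peak, which would be 24.4 and 17.2 of 57 genes where members had 2 and 1. In the fullest combination, a CpG ratio from 0.6 to 0.8 and a GC content from 45 to 50%, 1 of 12 members had a start peak in the control list and none in the other, next to 72.8% and 47.5% of 217 other genes. These shares are a description without a test.

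**Figure D4:**
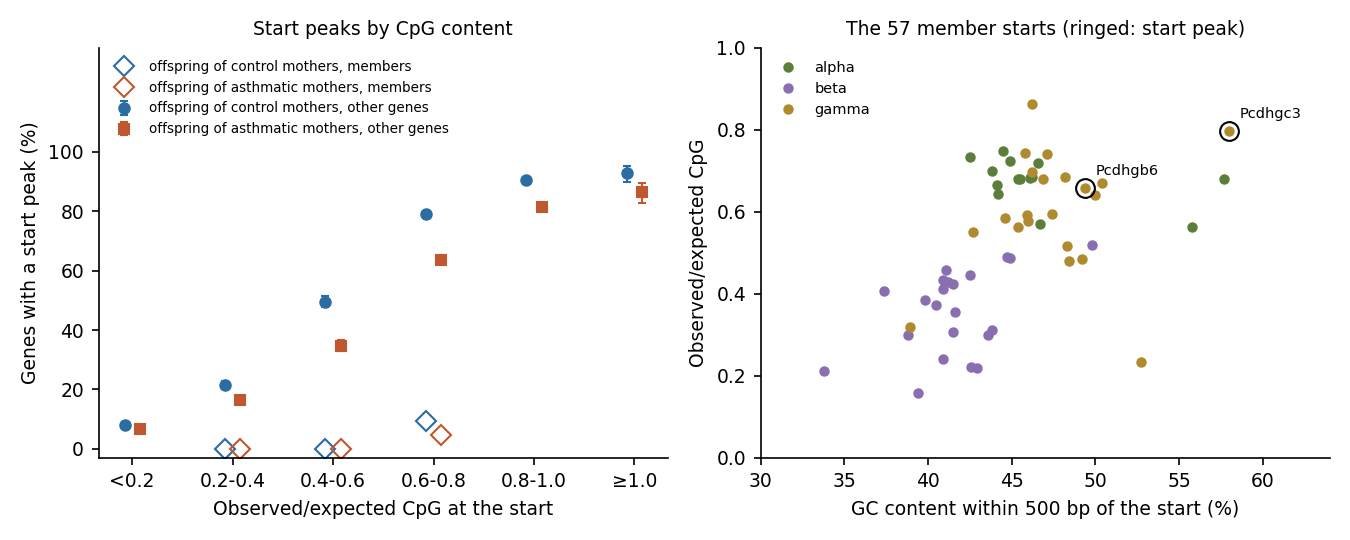
Left, percent of genes with a start peak by ratio of observed to expected CpG at the start, for other protein-coding genes (filled, exact 95% intervals) and for members in bins of more than 4 members (open), and right, CpG ratio against GC content (%) of the 57 members, coloured by cluster and ringed where a start peak was listed. From a ratio of 0.6 to 0.8, 79% and 63.7% of other genes had a start peak, and 2 and 1 of 21 members.

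Uniqueness of the sequence around the starts was read next, since a read within copied sequence matches several places. The 75 bases around every member's start occurred once in the genome, and of 41 stretches of 75 bases tested across each start region the median member had 0% with a copy elsewhere. At least 1 copied stretch was found in 22 of 57 members (38.6%) and in 23.4% of all coding genes, and the highest share among members was 17.1% at Pcdha7. The repeat-masked share had a median of 9.19% in members and 9.59% in all coding genes. The letters CGCT are the core of a conserved element of protocadherin promoters. They were sought on either strand from 250 bases before to 50 bases after the start. They occurred in 55 of 57 members (96.5%) and in 67.1% of all coding genes. The share was 84.6% in Hox genes, 83.3% in non-clustered protocadherins and 76.1% in other coding genes of chromosome 18. It was 11.4% in olfactory receptor genes of chromosome 9. Such short matches do not identify the element itself. Among members, Pcdhgc3 had the most matches, 8, and Pcdhgb6 had 1. The letters CCCTC, part of the CTCF motif, occurred in 15 of 57 members (26.3%) and 68.2% of all coding genes, and matches of both may share end bases. GC content, on which counts of such letters depend, had a median of 44.9% in members and 54.7% in all coding genes. These matches are no count of CTCF sites, and CTCF binding was not measured here. Pcdhgb6 held 1 match and Pcdhgc3 none.

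Other gene families with developmental or neuronal roles were read in the same way. Olfactory receptor genes of chromosome 9, another tandem family of single-choice genes, had start peaks at 0 of 132 (interval up to 2.76%) and 1 of 132 (0.758%). Hox genes had them at 8 of 39 (20.5%, 9.3 to 36.5) and 2 of 39 (5.13%, 0.627 to 17.3). Median CpG ratio and GC content were 0.101 and 35% in the olfactory receptors, against 0.564 and 44.9% in the clustered members. They were 0.678 and 57.4% in Hox genes and 0.665 and 56.9% in non-clustered protocadherins. Of coding genes outside the clusters with a CpG ratio below 0.2, 8.19% and 6.57% had a start peak. The 12 non-clustered protocadherins lie outside the clusters, some of them also on chromosome 18. Of these 12, 3 had a start peak in the control list and none in the asthmatic list (interval up to 26.5%). The 3 with a peak were Pcdh1, an adhesion gene of airway epithelium (fold 4.48, −log10 q 4.44), Pcdh7 (fold 4.38, −log10 q 6.36) and Pcdh19, a gene of female-limited epilepsy (fold 4.6, −log10 q 4.6). The interval of the clustered members (0.428 to 12.1 in the control list and 0.0444 to 9.39 in the asthmatic list) overlapped that of each of these 3 families in both lists, so no order among them is read from these counts. It lay below the interval of all coding genes in both lists (50.2 to 51.5 and 41.2 to 42.5).

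**Figure D5:**
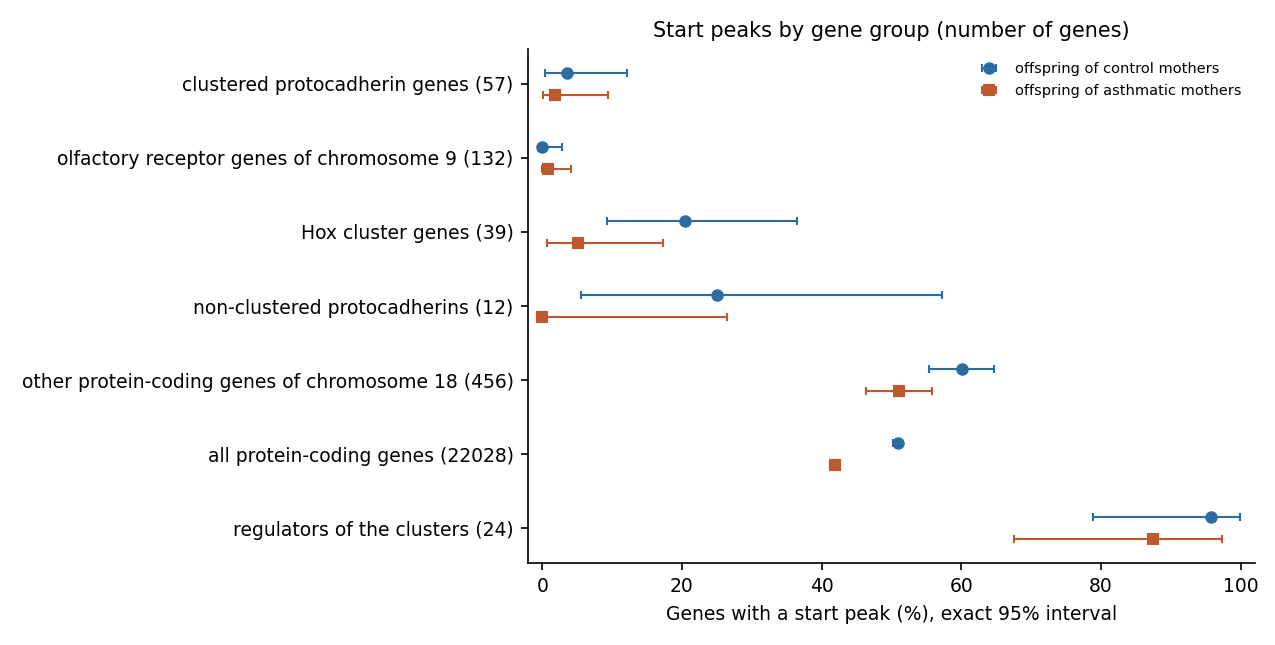
Percent of genes with a start peak and its exact 95% interval, which covers counting error alone, for the clustered protocadherins and other gene sets in each library. Clustered protocadherins (3.51% and 1.75%) sit below all protein-coding genes (50.9% and 41.9%). Their intervals overlap those of the olfactory receptors, Hox genes and non-clustered protocadherins.

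Genes whose products act on the clusters were read last. Of 24 known or candidate regulators, 23 had a start peak in the control list (95.8%) and 21 in the asthmatic list (87.5%), where 50.9% and 41.9% of all protein-coding genes did. The regulators were not matched to other genes by CpG ratio. Of coding genes outside the clusters with a ratio from 0.8 to 1.0, 90.4% and 81.3% had a start peak. Regulators with a start peak in both lists included Ctcf, the cohesin genes Rad21 and Smc3, and Smchd1, which keeps the clusters silent. Cbx5, for the heterochromatin protein HP1 alpha, had none in either list. Atf7ip, a partner of the histone methyltransferase SETDB1, had one in the control list alone (fold 8.68, −log10 q 16.4), and so did the cohesin gene Smc1a (fold 5.11, −log10 q 5.92). Of 11 genes for signalling partners of protocadherins, such as Ptk2 and Fyn, 10 had a start peak in each list (90.9%), set against the same 50.9% and 41.9%, and Cttn had none in either.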

How the data were processed

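H3K4me3 was measured by CATCH-seq, a carrier-assisted native ChIP-seq for few cells, in 1 library of lung ILC2s per group. Per the study's methods, reads were adapter-trimmed, mapped by Bowtie 2 to GRCm38 and cleared of duplicates by Sambamba. The peak caller and its threshold are not given in the sources used here. Some lysate was set aside to build an input library, whose use as a control is not stated. The study's reporting summary says that no peaks were called on the ChIP-seq data and that their quality was not checked, yet a peak list was deposited for each library, and every count here rests on these lists. The deposited score equals the −log10 q multiplied by 10 and cut to a whole number, in at least 99.98% of each list. The deposited fold was read as the ratio of summit signal to background after 1 is added to each. Further deposited columns hold the −log10 of a p-value and of a q-value per peak. No peak had a −log10 q under 2.02 in the control list or 2.01 in the asthmatic list. The lists hold no read counts, and the study gives a sequencing total for the experiment but not for each library, so the depth of each list is unknown.

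Peaks were counted from 1. Transcript starts, gene spans and exons came from GENCODE M21. Gene spans and symbols defined the members, and peaks shared at least 1 bp when called overlapping. Fragments at summits were solved from fold and p for a Poisson model with 1 added to signal and background. These numbers are derived, assume that no control was used, and could be solved for 100% of the 2000 peaks tried per list. Copies of 75 bases were sought in either strand of 21 assembled chromosomes, with stretches 50 bases apart around each start. Base composition was available for 21938 coding genes. Scripts for overlap, distance, copies and fragments were tested on simulated data first. Values were computed in Python 3.11.15 with pandas 2.3.3, scipy 1.17.1 and numpy 2.4.6 and drawn with matplotlib 3.10.9.

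Genes were named by rule: every member with a start peak, the C-type members, the ends of each cluster, every peak inside the clusters, the 3 nearest members without a peak, the coding genes inside or between clusters, and listed protocadherins and regulators with a peak in 1 list. Diaph1, Zmat2, Hars, Hars2, Hdac3, Rell2, BC037039, Pcdhgb8, Pcdha7 and Pcdhga11 were named after their values were seen. So were the regulators and partners with a start peak in both lists or in neither (Cbx5 and Cttn). The marker genes named singly were likewise picked from their lists after their values were seen. The members and gene lists were chosen with earlier results of these data known. No test was run, since there was 1 library per group. No sequence is printed, because the members lie on a chromosome whose sequence is not reported here.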

Additional observations from a re-analysis of the deposited data

How the results depend on the processing

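No paired analysis was possible because each group had a single library. With a −log10 q of at least 5, start peaks were at 2 members in the control list and 0 in the asthmatic list, against 49.5% and 37.3% of all coding genes, and 6 and 9 peaks were inside the clusters. With the 10000 peaks of highest −log10 p in each list, 0 members had a start peak in either list, against 32.2% and 9.32% of coding genes, and 0 and 1 peaks were inside the clusters. With single-copy summits alone, 2 and 1 members, 49.4% and 40.3% of coding genes and 3 and 2 cluster peaks remained, since this setting drops peaks. A distance of 500 bp gave 2 and 1 members and 50% and 40.6% of coding genes, and 2000 bp gave 2 and 2 members, the added one being Pcdha6, and 52.1% and 43.7%. Starts of genes alone, without other transcripts, gave 2 and 1 members and 47% and 38.3%. With an overlap of at least 50% of both peaks, 3 peaks inside the clusters were shared in each list in place of 5. Joining peaks at most 1000 bp apart gave 5 and 12. In the 6 settings that gave shares of coding genes, the share of members was below them. The Pcdhgc3 peak of offspring of asthmatic mothers, solved at 10 fragments, therefore rests on the threshold used. A start without a listed peak may still carry H3K4me3 below the threshold of these lists, and the depth of each library is unknown.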
